A study of Homo sapiens with 12 samples.

Results

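SMARCB1 was re-expressed in a cell line that lacks it, and the accessible chromatin was compared with that of the same line expressing GFP, both under the vehicle DMSO. The comparison used 6 of the 12 libraries of the series: 3 labelled GFP with DMSO and 3 labelled SMARCB1 with DMSO. All were from G401, an established human rhabdoid tumour line whose genotype is given as SMARCB1(-/-), so the GFP libraries stand for the SMARCB1-deficient state. Doxycycline was given for 24 h in both groups to induce either GFP or SMARCB1, and DMSO was present in both. The other 6 libraries repeat both inductions with dBRD9-A, a degrader of BRD9, in place of DMSO. They share no library with the DMSO comparison and were used here only to see whether its results recurred. The labels do not say whether the replicates were separate cultures, nor which promoter or integrated clones carried the inducible genes, so the spread between libraries may be technical in part.

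SMARCB1 is a core subunit of the canonical BAF and PBAF forms of SWI/SNF, the complexes that use ATP to move nucleosomes. The non-canonical form that holds BRD9 lacks SMARCB1. Rhabdoid tumours are defined by loss of SMARCB1. In such cells SWI/SNF is known to be held less at distal enhancers than at promoters, and re-expression of SMARCB1 is known to restore binding at enhancers. ATAC-seq reads accessibility from the insertions of a transposase, and here each library was represented by the peaks called from its fragments shorter than a nucleosome. Coordinates are in hg19 and count from 1. The gene table used here is of another build (GRCh38.p14), so regions are given by position, and no gene, exon or promoter was assigned to them, with the exception of SMARCB1 itself.

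The induced gene was examined first, as a check of the labels. SMARCB1 lies on the long arm of chromosome 22, and its place in hg19 was taken from general knowledge rather than from an annotation. Between chr22:24129357 and chr22:24175876 the SMARCB1 DMSO libraries had 6, 4 and 6 peaks in replicates 1, 2 and 3, and the 3 GFP DMSO libraries had 0. The GFP libraries, with or without dBRD9-A, had 0 peaks over a gap of 459.724 kb, from position 24001798 to position 24461523. The peak at chr22:24129357-24129451 was 95 bp wide and began and ended at the same base in all 3 SMARCB1 DMSO libraries and in all 3 SMARCB1 dBRD9-A libraries. Its fold values, the authors' enrichment of the summit over the local background, were 37.4, 31.1 and 40.3 in SMARCB1 DMSO replicates 1, 2 and 3. The libraries thus separated at this gene as labelled. Whether these peaks came from the resident gene or from the introduced copy was not tested.

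Depth differed between the groups. Summit pileups, the number of fragments over the highest point of a peak, and the background pileup around it were recovered from each peak's fold and p value. The background pileup of the genome as a whole, which rises with the number of fragments, was 0.0678, 0.0414 and 0.0446 in GFP replicates 1, 2 and 3. It was 0.0769, 0.0720 and 0.0926 in SMARCB1 replicates 1, 2 and 3, so every SMARCB1 library lay above every GFP library. At the regions called in all 6 libraries the order was different: the median summit pileup was 21, 13 and 13 fragments in the GFP libraries and 16, 17 and 17 in the SMARCB1 libraries. GFP replicate 1 was therefore the most deeply covered library at shared regions. Read totals were not analysed here, and depth was addressed by thinning the lists to equal background, with the values given beside the results. Thinning lowered the pileups and dropped weak peaks but kept the start and end of each remaining peak. It therefore cannot show whether depth affected peak width.

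SMARCB1 libraries had about 2.21 times as many peaks as GFP libraries. The lists held 43712, 35279 and 35586 peaks in GFP replicates 1, 2 and 3, and 76764, 90143 and 85925 in SMARCB1 replicates 1, 2 and 3. The groups did not overlap, and the difference of 46085 peaks exceeded the SD of either group (4783 and 6840, n = 3 each). Peaks covered 6.14 ± 0.912 Mb of the genome under GFP (SD, n = 3), and under SMARCB1 they covered 13.8 ± 1.07 Mb (SD, n = 3). The median peak measured 117 ± 2.08 bp under GFP (SD, n = 3), and 127 ± 1.15 bp under SMARCB1 (SD, n = 3). Lists also overlapped more within a group than across groups, by the Jaccard index, the bases in both lists over the bases in either. It was 0.546 to 0.562 among GFP pairs, 0.462 to 0.504 among SMARCB1 pairs and 0.276 to 0.327 across. The difference in covered bases by itself keeps the index across groups low. With lists of equal length, the mean index within groups minus the mean across was 0.196, against 0.225 for the full lists. Each of these 4 measures had a two-sided exact permutation p of 0.1, the smallest that 3 against 3 libraries can give, and 0.1 after Benjamini-Hochberg adjustment over the 4.

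**Figure D1:**
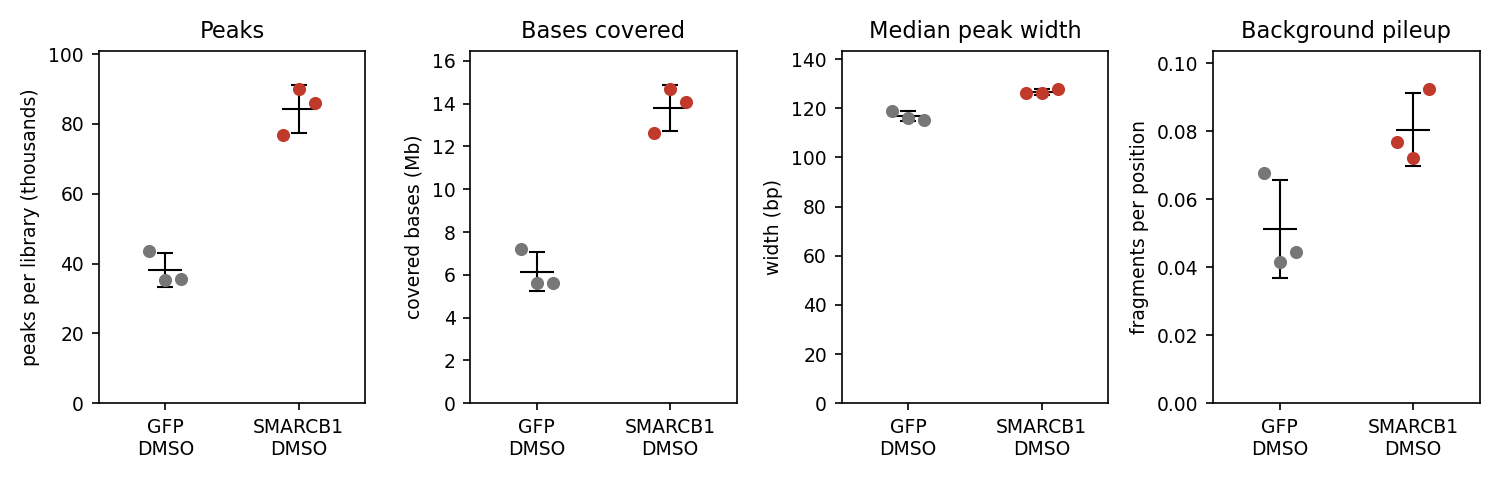
Number of peaks (in units of 1000), bases covered (Mb), median peak width (bp) and background pileup (fragments per position) of the 6 DMSO libraries. Points are libraries, horizontal marks are means and bars are SDs (n = 3); the SMARCB1 points lie above the GFP points in all 4 panels, with the peaks between 76764 and 90143 against 35279 to 43712.

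Merging the peaks of the 6 lists where they overlapped by at least 1 bp gave 142567 regions covering 24.1 Mb. Regions with a peak in 3 of 3 SMARCB1 and 0 of 3 GFP libraries, called gained, numbered 21158 (14.8% of all regions). Regions with the reverse pattern, called lost, numbered 614 (0.431% of all regions). Of the regions that changed in this complete way, 97.2% were gained. A further 21147 regions had a peak in all 6 libraries and are called shared. The counts are descriptions, because a single region compared over 3 against 3 libraries cannot reach an exact p below 0.1. Several settings moved them by more than 1.5 times. Thinned to equal background, 12988 regions were gained and 946 lost, so that 93.2% were gained, and 12718 of the 21158 gained regions (60.1%) were gained there as well. With lists of equal length, which draw the 2 numbers together by construction, 5979 were gained and 3298 lost. With 1 library left out, lost regions numbered 1304 without GFP replicate 2, 1401 without GFP replicate 3, 1177 without SMARCB1 replicate 2 and 928 without SMARCB1 replicate 3.

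Partial changes leaned the same way. Beside the gained regions, 2994 had a peak in all 3 SMARCB1 libraries and 1 GFP library, and 3561 in all 3 SMARCB1 and 2 GFP libraries. The mirror classes, with all 3 GFP libraries and 1 or 2 SMARCB1 libraries, held 1025 and 2200 regions. In total 27713 regions were complete in SMARCB1 and incomplete in GFP libraries, against 3839 the other way. Among the 2994 regions with a single GFP library, that library was replicate 1 in 1564, replicate 2 in 655 and replicate 3 in 775 cases, so the best covered GFP library supplied most of them. At its 1564 regions GFP replicate 1 had a median width of 93 bp and a median summit of 5 fragments. Over all 2994 regions, a different set, the SMARCB1 medians were 158 to 168 bp and 9 to 10 fragments. Many regions rested on a single library: 50048 had a peak in just 1 SMARCB1 library and 11512 in just 1 GFP library.

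**Figure D2:**
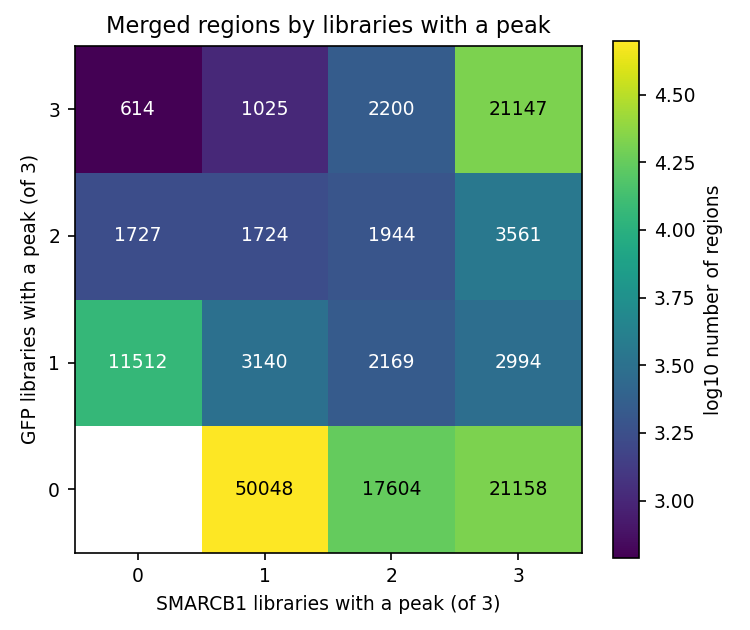
Number of merged regions by how many of the 3 SMARCB1 libraries (horizontal axis) and of the 3 GFP libraries (vertical axis) had a peak, with colour on a log10 scale. The bottom right square holds the 21158 gained regions, the top left the 614 lost and the top right the 21147 shared ones.

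The gained regions were of middling strength within the SMARCB1 lists and as wide as most peaks or wider. Their median summit was 7, 8 and 8 fragments in SMARCB1 replicates 1, 2 and 3, below the 16, 17 and 17 of shared regions in the same libraries. The weakest peaks of every list had 2 fragments, and the lower decile of gained regions was 3 fragments in each SMARCB1 library. Their median peak width was 161, 172 and 173 bp in replicates 1, 2 and 3, and the median place in the list by fold was the 55.3, 58.8 and 59.1 percentile. Gained regions held a smaller share of the strongest peaks than of all peaks. They made up 27.8%, 23.7% and 24.9% of all peaks in SMARCB1 replicates 1, 2 and 3, and 14.1%, 13.1% and 18.1% of the 10% of peaks with the highest fold. Of the same strongest peaks, shared regions made up 79.8%, 80.9% and 75.1%. In the GFP libraries lost regions made up 0.0229%, 0.0283% and 0.0562% of the 10% with the highest fold in replicates 1, 2 and 3, and shared regions made up 99.6% or more. Lost regions were narrower and stood lower in the lists, at a median fold percentile of 40.4, 29.4 and 32.4 in GFP replicates 1, 2 and 3. Their median summit was 8, 6 and 6 fragments in GFP replicates 1, 2 and 3, and the median peak width 108, 96 and 96 bp.

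Among the gained regions, the 10 of highest mean fold percentile all lay above the 99.5 percentile. The first was the SMARCB1 peak on chromosome 22 described above. Whether it came from the resident gene or the introduced copy was not tested, so it is not shown to be a gain in accessibility there. The second, chr4:99981402-99981754, had summits of 68, 51 and 57 fragments and folds of 35.6, 29.2 and 28.7 in SMARCB1 replicates 1, 2 and 3, and no peak in any of the 6 GFP libraries of the series. The next, chr17:19047772-19047925, was 154 bp wide with summits of 40, 41 and 52 fragments. GFP dBRD9-A replicate 3, which the comparison did not use, had a 97 bp peak of 9 fragments there. At chr20:50073092-50073374 the SMARCB1 summits were 51, 39 and 46 fragments, and GFP dBRD9-A replicates 1 and 2 had peaks of 2 and 3 fragments. The regions chr11:68530724-68531066 (44, 43 and 44 fragments), chr1:204592495-204592908 (57, 50 and 54) and chr10:123942663-123942983 (63, 38 and 89) had no peak in any GFP library of the series. The rest of the 10 were chr8:144346741-144347062 (56, 61 and 45 fragments), chr1:44047952-44048174 (35, 42 and 54) and chr18:20981450-20981854 (54, 53 and 55), each with a weak peak of 9, 5 or 3 fragments in 1 GFP dBRD9-A library. All 10 had a peak in all 3 SMARCB1 dBRD9-A libraries.

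Of the 10 strongest lost regions, 1 stood far above the others. At chr3:14393640-14393885 the GFP summits were 57, 31 and 41 fragments in replicates 1, 2 and 3, with folds of 28.5, 21.0 and 26.2 and a mean fold percentile of 98.2. It also had peaks of 35, 33 and 52 fragments in the 3 GFP dBRD9-A libraries and none in the 3 SMARCB1 dBRD9-A libraries. Mean percentiles of the remaining 9 ran from 69.7 up to 79.4. Among them chr6:72130499-72130798 had GFP summits of 27, 16 and 13 fragments, chr6:112668434-112668545 of 20, 12 and 15, and chr9:138994606-138994734 of 20, 16 and 14, and none had a peak in a SMARCB1 dBRD9-A library. The same held for chr12:122300474-122300657 (8, 26 and 27 fragments) and chr19:11998495-11998711 (22, 13 and 8). The remaining 4 had a peak in SMARCB1 dBRD9-A libraries: chr1:27396825-27397081 in 1, chr8:1273460-1273586 in 2, chr9:130526517-130526636 in 2 and chr1:16946305-16946480 in all 3.

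Gained regions lay farther from shared regions than shared regions lay from each other. The median gap from a gained region to the nearest shared region was 37994.5 bp, against 16467 bp from one shared region to the next and 13415.5 bp for lost regions. Within 1 kb of a shared region were 2.43% of gained, 12.2% of shared and 10.4% of lost regions. More than 100 kb away were 25.01%, 10.7% and 15.6%. Gained regions were closer to each other than to shared ones, with a median gap of 20856 bp to the next gained region. These are descriptions over regions, which are not replicates. They were made from the full lists, as were those by chromosome and stretch below. They were not repeated after thinning to equal background, where 60.1% of the gained regions were gained as well. The gaps were also taken only among regions at least 1 kb from any other, which left 13956 shared regions to measure to. With fewer shared regions the gaps grow by construction. They were 57122.5 bp for gained, 31440 bp for shared and 33511 bp for lost regions, with gained regions still the farthest.

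The chromosomes were not filled evenly. Across the genome there were about as many gained as shared regions (1.001 to 1), but the ratio was 1.62 on chromosome 18, with 482 gained and 298 shared regions, and 0.276 on chromosome 19, with 424 and 1538. Chromosome 18 is known as poor and chromosome 19 as rich in genes. Chromosomes 2, 8 and 13 followed chromosome 18 with ratios of 1.41, 1.40 and 1.43, and chromosomes 17 and 16 followed chromosome 19 from below with 0.575 and 0.682. Chromosome Y had 35 gained and 13 shared regions and is too thinly filled for a ratio. Lost regions lay between gained and shared ones on both: chromosome 19 held 2.004% of gained, 4.72% of lost and 7.27% of shared regions, and chromosome 18 held 2.28%, 1.95% and 1.41%. The lost regions there were few, 29 and 12. Whole lists, which hold these same regions, differed in the same way. Chromosome 19 held 6.38%, 6.54% and 6.59% of the peaks in GFP replicates 1, 2 and 3, and 4.12%, 3.83% and 4.01% in SMARCB1 replicates 1, 2 and 3. Chromosome 18 held 1.64%, 1.62% and 1.59% in the GFP and 1.96%, 1.96% and 2.04% in the SMARCB1 libraries. Neither pair of groups overlapped, and each had an exact permutation p of 0.1, the smallest possible. These 2 chromosomes were chosen for their ratios in the same 6 lists, so the shares and their p-values are no separate support for the pattern.

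**Figure D3:**
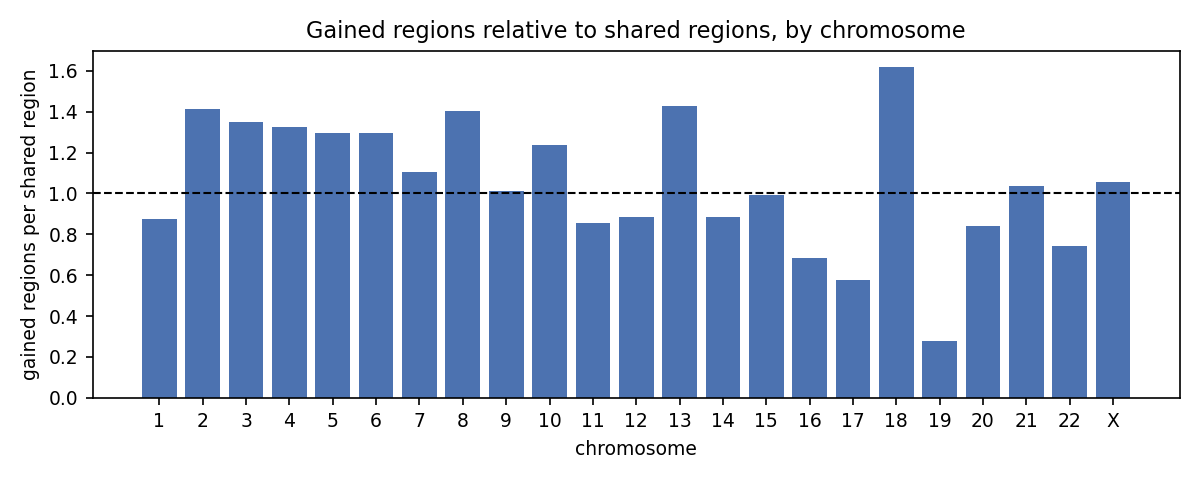
Gained regions per shared region for chromosomes 1 to 22 and X; the dashed line is the value over the whole genome, 1.001. Chromosome 18 is highest at 1.62 and chromosome 19 lowest at 0.276.

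Gained regions were unevenly spread, but lay no closer to each other than shared regions did. Within 10 kb of another region of their own class were 29.5% of gained and 37.7% of shared regions. The genome was divided into stretches of 500 kb, of which 4041 held a gained region, with a median of 4, and 583 held 10 or more. In 666 stretches there were gained regions and no shared region, and in 434 shared regions and no gained one. The fullest stretch, from 3500001 to 4000000 on chromosome 10, held 34 gained regions and 1 shared region. The next was 153500001 to 154000000 on chromosome 5 with 28 gained and 5 shared, followed by 112000001 to 112500000 on chromosome 10 with 27 and 7. On chromosome 8, the stretches 119000001 to 119500000 and 129000001 to 129500000 held 25 gained regions each, beside 3 and 1 shared. None of these 5 stretches held a lost region.

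The shared regions were then compared for strength. The fold of each region was ranked within each library over the same 21147 regions, so that every list had the same length, and normal scores of the ranks were tested with limma. Such ranks show relative order within the shared set and not absolute change. At a Benjamini-Hochberg adjusted p under 0.05, 657 regions were raised (3.11% of those tested) and 206 lowered (0.974%) in SMARCB1 libraries. The raised regions moved from a median percentile of 18.04 in GFP to 76.5 in SMARCB1 libraries, and the lowered ones from 70.7 to 20.7. By the cruder criterion that all 3 SMARCB1 libraries lie on one side of all 3 GFP libraries, 10.9% of shared regions were above and 11.3% below. With exchangeable libraries, each of these patterns would be 1 of 20 possible arrangements. The counts depended on single libraries, in fits with fewer samples. Raised regions numbered 322 without SMARCB1 replicate 1 and 428 without SMARCB1 replicate 3. Lowered regions numbered 97, 115 and 108 without GFP replicates 1, 2 and 3, and 77, 130 and 114 without SMARCB1 replicates 1, 2 and 3. Thinned to equal background, 303 were raised and 58 lowered.

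The 5 regions raised most stood at or below the 27.6 percentile of the shared set in every GFP library and at or above the 70.9 percentile in every SMARCB1 library. At chr8:10657307-10657624 the summits were 4, 6 and 6 fragments in GFP replicates 1, 2 and 3 and 57, 55 and 71 in SMARCB1 replicates 1, 2 and 3. Its normal score rose by 3.88 ± 0.331 (SE, limma adjusted p 3.4e-06). The change at chr8:127500399-127500769 was 3.61 ± 0.274 (SE, limma adjusted p 1.5e-06), from 7, 5 and 6 fragments to 58, 49 and 63. Both groups were far apart at these sites, with no overlap. At chr11:101881915-101882109 the summits were 5, 2 and 7 fragments in GFP and 29, 31 and 51 in SMARCB1 libraries. They were 4, 3 and 3 against 30, 41 and 37 at chr3:197581886-197582162, and 3, 4 and 2 against 33, 22 and 43 at chr3:12804851-12805111. The peaks in GFP libraries were weak at all 5, with folds from 2.86 to 7.44. In each alternative fit that could be made for them, the 5 remained raised, with the highest adjusted p at 0.00395.

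The most lowered regions kept a weak peak in SMARCB1 libraries. At chr2:208030787-208031178 the summits were 51, 33 and 32 fragments in GFP and 7, 6 and 5 in SMARCB1 replicates 1, 2 and 3, with a difference in normal score of −2.32 ± 0.316 (SMARCB1 minus GFP, SE, limma adjusted p 0.000285). The peak there was 318 bp or wider in every GFP library and 188, 140 and 145 bp wide in the SMARCB1 libraries. At chr4:65583894-65584123 the summits went from 24, 14 and 16 to 3, 4 and 2 fragments, and at chr13:20392479-20392698 from 27, 20 and 24 to 6, 2 and 9. At chr7:148769017-148769159 they were 16, 8 and 12 against 2, 4 and 3. The fifth, chr1:5805916-5806105, was uneven: GFP replicates 1 and 2 had 21 and 20 fragments but replicate 3 had 6, next to 2, 4 and 7 in the SMARCB1 libraries. It was the exception among the 5, as its adjusted p passed 0.05 in 4 of 10 alternative fits and reached 0.105.

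**Figure D4:**
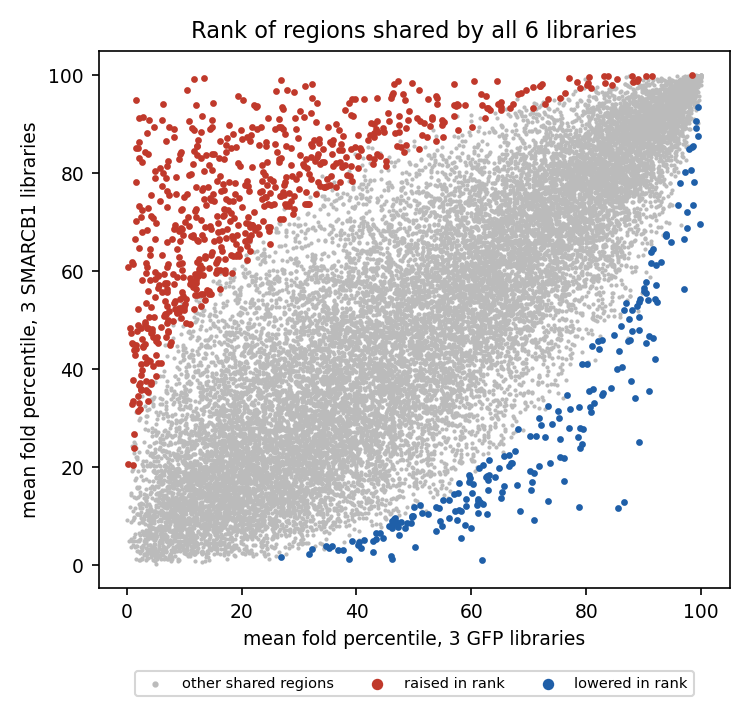
Mean percentile of the fold within the 21147 shared regions, in the 3 GFP libraries (horizontal axis) and the 3 SMARCB1 libraries (vertical axis), one point per region. The 657 raised regions are red, the 206 lowered regions blue and the others grey; most red points sit at the left, with a median GFP percentile of 18.04.

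Regions that changed rank lay nearer to gained regions than other shared regions did. The nearest gained region was a median of 20383 bp from raised and 18259.5 bp from lowered regions, against 30830 bp for all shared regions. Within 10 kb of a gained region were 29.4% of raised, 36.4% of lowered and 20.6% of all shared regions. Raised regions followed the chromosome pattern of gained ones in part: 3.65% lay on chromosome 19, against 7.27% of all shared regions and 6.80% of the lowered. Raised regions also had a broad merged span, with a median of 325 bp against 251 bp for all shared and 189 bp for lowered regions. The span takes in the peaks of the SMARCB1 libraries, where the rank was raised. In GFP libraries the median width of raised regions was 163 bp, against 169 bp for all shared regions. In SMARCB1 libraries it was 278 bp against 196 bp. Summit positions were compared over shared regions as a whole. In those with 1 peak in every list, the median distance between the summits of 2 libraries was 10 to 11 bp for pairs within GFP, 10 bp within SMARCB1 and 10 to 11 bp across groups. Summits over 100 bp apart were more frequent across groups, at 6.98% to 7.41% of regions, than within them, at 5.72% to 6.32%. These pairs share libraries, and the difference was not tested.

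Width at shared regions was compared next, and its direction depended on how widths were scaled. The width of a region in a library is the sum over its peaks there, where it held more than 1. Median widths over the shared regions were 191, 157 and 159 bp in GFP replicates 1, 2 and 3 and 196 bp or more in every SMARCB1 library. GFP replicate 1, the best covered GFP library, was thus within 5 bp of the lowest SMARCB1 library. With limma on log2 width, 521 regions were wider (2.46% of those tested) and 48 narrower (0.227%) at an adjusted p under 0.05, a split of 91.6% wider. All 3 SMARCB1 libraries were wider than all 3 GFP libraries at 15.4% of shared regions and narrower at 4.1%, where each pattern is 1 of 20 possible arrangements. With widths centred on the median of each library, 239 were wider (1.13%) and 151 narrower (0.714%), a split of 61.3%. Centring moved the median log2 difference over all shared regions from 0.07 to −0.16. At an unadjusted p under 0.05, the regions went from 2537 wider and 530 narrower to 1218 wider and 3382 narrower. Of the 521 wider regions 231 were wider after centring too, and all 48 narrower ones were narrower there. Without SMARCB1 replicate 1 or without SMARCB1 replicate 2, limma called 0 wider and 0 narrower regions (lowest adjusted p 0.0557 and 0.0502), with 2184 and 1978 wider and 473 and 586 narrower regions at an unadjusted p under 0.05. Without SMARCB1 replicate 3 it called 91 wider and 6 narrower, and without GFP replicate 3, 320 and 28. The number narrower was 27 without GFP replicate 1.

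The regions with the largest called increase held short peaks in GFP libraries, of 84 to 120 bp. Some GFP peaks of 2 or 3 fragments at the regions raised in rank were as short, at 83 and 86 bp. How far a shortest possible peak width bounds the differences here and below was not tested. At chr1:116012422-116013071 the summed peak width was 117, 85 and 86 bp wide in GFP and 613, 472 and 596 bp in SMARCB1 replicates 1, 2 and 3, a log2 difference of 2.55 ± 0.182 (SE, limma adjusted p 0.00729). The widths at chr22:19679345-19679824 were 94, 85 and 84 bp against 460, 463 and 478 bp, and at chr10:3239504-3240130 they were 107, 120 and 88 bp against 623, 449 and 549 bp. At chr20:61863644-61864446 they were 98, 92 and 85 bp against 644, 387 and 652 bp. The fifth, chr8:2671505-2672247, had 107, 86 and 95 bp against 618, 593 and 347 bp. Among these values, 472, 644, 652 and 593 bp are each the sum of 2 peaks. Summits were also higher in every SMARCB1 than in every GFP library at these 5 sites. For example, those at chr1:116012422-116013071 were 7, 3 and 6 fragments in GFP and 12, 12 and 16 in SMARCB1 libraries. Each of the 5 lost its call in some alternative fits, among them the one with the replicate block, with the adjusted p at 0.0783 at most.

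Narrowing was rarer and of the opposite form. The width at chr5:75985553-75986059 was 504, 495 and 329 bp in GFP and 86, 89 and 85 bp in SMARCB1 replicates 1, 2 and 3, a log2 difference of −2.33 ± 0.199 (SE, limma adjusted p 0.00854). No SMARCB1 dBRD9-A library had a peak at that region, while the 3 GFP dBRD9-A libraries had widths of 425 (the sum of 2 peaks), 600 and 314 bp. At chr7:25301320-25301799 the widths were 480, 398 and 314 bp against 119, 86 and 86 bp, and at chr16:25149479-25149911 they were 333, 433 and 349 bp against 123, 96 and 86 bp. At chr21:30265749-30266294 they were 496, 489 and 330 bp against 93, 86 and 172 bp, the last being the sum of 2 peaks. The fifth, chr1:167427003-167427695, had 680, 591 and 344 bp against 141, 168 and 197 bp. These 5 also lost their calls in some alternative fits, among them the one with the replicate block. In the alternative fits the highest adjusted p ran from 0.0783 to 0.128. Both raised and wider were 121 regions, 18.4% of the raised and 23.2% of the wider ones, where 2.46% of all shared regions were wider and 3.11% raised. Both lowered and narrower were 4, or 1.94% of the lowered and 8.33% of the narrower ones, where 0.227% of all were narrower. Of the opposite pairs, 0 regions were both raised and narrower, and 1 was both lowered and wider (0.485% of the lowered). As 0.227% of all shared regions were narrower, few could be both raised and narrower, and the 0 carries little weight.

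The dBRD9-A libraries, which the DMSO comparison did not use, were then examined at the same regions. In their titles they carry library numbers next to those of the DMSO libraries of the same replicate. The labels do not say whether such libraries shared cultures or a batch, so the recurrence below may not be independent of the DMSO results. Regions gained under DMSO had a peak in 91.1%, 78.4% and 90.05% of cases in SMARCB1 dBRD9-A replicates 1, 2 and 3. In GFP dBRD9-A replicates 1, 2 and 3 they had one in 1.78%, 1.99% and 5.86% of cases. Lost regions had a peak in 55.1%, 58.0% and 80.8% of cases in the GFP and in 21.7%, 19.1% and 25.9% in the SMARCB1 libraries, so that the loss recurred less fully. The groups did not overlap for either class, with an exact permutation p of 0.1, the smallest possible. The 2994 regions with 1 GFP DMSO library lay between, at 36.4% ± 15.7 in GFP and 88.3% ± 5.45 in SMARCB1 dBRD9-A libraries (SD, n = 3 each). Shared regions had a peak in 95.6% ± 2.84 and 97.5% ± 1.37 (SD, n = 3 each; exact permutation p 0.4). GFP dBRD9-A replicate 3, the highest of the GFP libraries in every class, also had the highest background pileup of the GFP libraries, 0.0784, and SMARCB1 dBRD9-A replicate 2, the lowest of the SMARCB1 libraries, had the lowest of those, 0.0487. The part of depth in these shares was not tested.

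**Figure D5:**
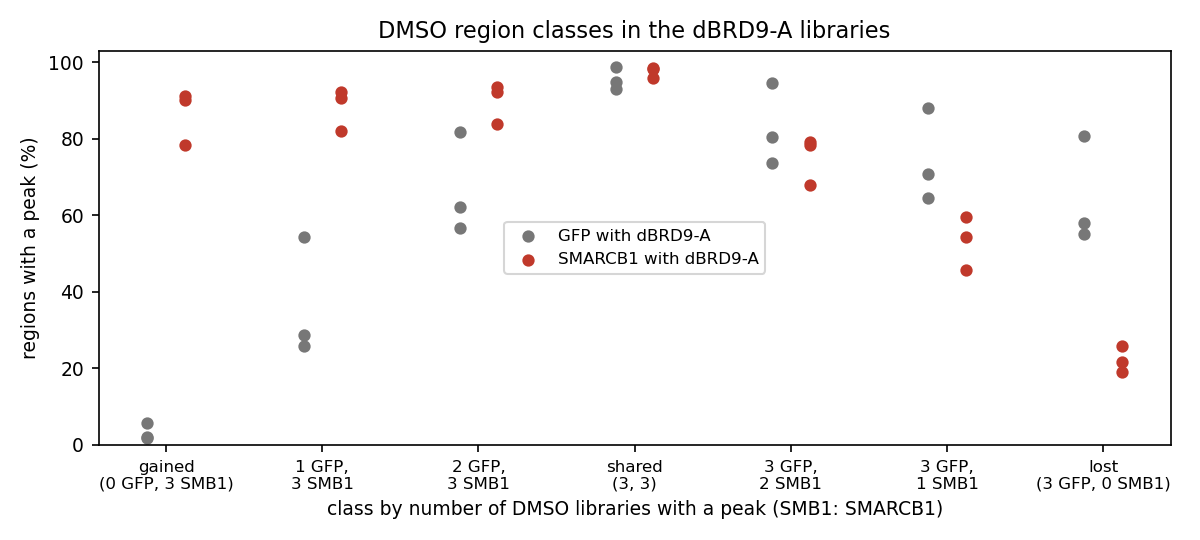
Share of the regions of each DMSO class (horizontal axis, by the number of GFP and SMARCB1 DMSO libraries with a peak) that had a peak in each dBRD9-A library; grey points are GFP and red points SMARCB1 libraries (3 each). The groups stand farthest apart for the gained class, at 5.86% or less against 78.4% or more.

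Changes at shared regions also recurred in the dBRD9-A libraries. A peak in all 6 of these libraries was found at 18121 of the shared regions. Of the 657 raised regions 428 were among them, and 417 of these (97.4%) were higher in SMARCB1 than in GFP dBRD9-A libraries, against 46.4% of all 18121. The limma fit to the dBRD9-A libraries alone raised 444 regions (2.45% of those tested) and lowered 89 (0.491%), and 248 of the 428 (57.9%) passed it. Of the 206 lowered regions 180 were among the 18121, with 164 (91.1%) lower again, against 53.6% of all, and 26 (14.4%) passed the fit. For width, 378 of the 521 wider regions could be examined and 368 (97.4%) were wider again, against 64.9% of all. The dBRD9-A fit called 230 wider (1.27%) and 11 narrower (0.0607%), and 97 of the 378 passed it. Of 33 narrower regions 24 (72.7%) were narrower again, against 35.1% of all, and 3 (9.09%) passed the fit. None of the regions called in DMSO and examined here (0 in each of the 4 sets) was called in the opposite direction. In a limma fit to all 12 libraries, the difference between the DMSO and dBRD9-A effects was called for rank at 0 regions (lowest adjusted p 0.999, with 356 higher and 389 lower at an unadjusted p under 0.05) and for width at 1. Across the 18121 regions, which are not independent, the differences under DMSO and under dBRD9-A had a Pearson r of 0.58 for rank and 0.56 for width, as a description.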

How the data were processed

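Peak lists of 12 ATAC-seq libraries were used, 1 list for each library; the comparison rests on 6. Per the submitters' processing notes, the tools included BWA 0.7.12-r1039, SAMtools 1.2, bedtools 2.24.0 and MACS2 2.1.1.20160309, with hg19. The lists are of nucleosome-free fragments, per the labels. They had been filtered before deposit by a step not given in the sources used here, and numbering gaps put its effect at 0.866% of a list or less. The authors deposited for each peak a fold enrichment of the summit over local background, a −log10 p and a −log10 q. The authors' deposited integer score was not used in any test. Fold and score are the authors' own, made within each library.

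Summit and background pileups were solved from fold and −log10 p, and were whole within 0.001. The background of a library was the 1% quantile over its peaks. Peaks overlapping by at least 1 bp were merged (Python 3.11.15, pandas 2.3.3). Library measures were compared with two-sided exact permutation tests (scipy 1.17.1). Log2 widths and normal scores of fold ranks were tested with limma 3.58.1 (R 4.3.3, eBayes with trend, Benjamini-Hochberg) over the 21147 shared regions. Simulated data, with the same noise in every region and 200 changed regions, were fitted first. Changes of 2 were found at all 200 for both measures. Changes of 1 were found at 199 for log2 width but at 49 (24.5%) for normal scores of rank, so many smaller rank changes would be missed. p-values measure the spread between libraries, which may be technical. Named regions were the 10 gained and 10 lost of highest mean fold percentile, and the 5 largest called changes in each direction of rank and width, and the 5 stretches of 500 kb with most gained regions. Members and lists were chosen with earlier results of these data known. Alternatives were a −log10 q of at least 5, equal list length, thinning to the lowest background pileup (0.0414), other region rules, centring, blocking and leaving out each library. Analyses by gene, start site or motif, planned at first, were not run, as no hg19 annotation or sequence was used here.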

Additional observations from a re-analysis of the deposited data

How the results depend on the processing

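No library difference changed sign, and wherever regions were called, the larger of the 2 counts stayed the same. The width fits were less stable: 0 regions were called in either direction with the replicate block and without SMARCB1 replicate 1 or 2. Centring turned the median log2 width difference over shared regions from 0.07 to −0.16. At an unadjusted p under 0.05 it turned 2537 wider and 530 narrower regions into 1218 and 3382. Peak number, bases covered, median width and list overlap kept their direction under every alternative run, and leaving out 1 library gave differences of 43152.2 to 49841.7 peaks. For width and bases covered, thinning is no full check of depth, because it kept the peak ends called at full depth. Gained regions numbered 12538 at a −log10 q of at least 5, 5979 with lists of equal length, 12988 thinned to equal background, 38762 when 2 of 3 libraries sufficed, and 21815 to 27604 with 1 library left out. Lost regions numbered 3298 with lists of equal length, 946 thinned, 2341 when 2 of 3 sufficed, and 772 to 1401 with 1 library left out. Among regions at least 1 kb from the next, the median gap to the nearest shared region that also met this rule was 57122.5 bp for gained, 33511 bp for lost and 31440 bp for shared regions.

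For rank, 298 regions were raised and 92 lowered at a −log10 q of at least 5, and 303 and 58 after thinning. With 1 library left out, 322 to 717 were raised and 77 to 130 lowered. For width, 239 were wider and 151 narrower after centring, 327 and 22 at a −log10 q of at least 5, and 465 and 31 with lists of equal length. With 1 library left out, 0 to 605 were wider and 0 to 37 narrower. The cause was not tested.

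Replicate numbers are shared by the groups. Same-numbered libraries deviated together over regions with r of 0.00489 to 0.059, and differently numbered ones with r of −0.0674 to 0.013. For replicates 2 and 3 the same-number r was above every r between different numbers. Such an r cannot see a shift common to a whole library, so it does not settle whether the numbers pair the libraries. Samples with the same number also carry neighbouring library numbers in their titles, whose meaning is not stated. With the replicate number as a block, limma called 0 wider and 0 narrower regions (lowest adjusted p 0.0783, with 2496 and 494 at an unadjusted p under 0.05), 133 and 73 with centring and the block together, and 838 raised and 287 lowered in rank. The smallest exact p with the block is 0.25 for library measures.

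Of values for named regions, 220 stayed on the same side of the threshold or within the spread, 40 no longer passed it, 27 moved and 43 could not be given. Lists of equal length give no peak number. The shares of peaks near start sites and with an AP-1 motif, and the gene lists, were not run. Depth limits the weak peaks most, since the weakest in every list had 2 fragments.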
